A study of Mus musculus with 384 samples.

Results

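The urea cycle turns ammonia released from amino acids into urea, and in mammals its complete form runs in hepatocytes, mostly those near the portal vein. Its first steps lie in the mitochondrion and its later steps in the cytosol, so that ornithine, citrulline and aspartate must cross the inner mitochondrial membrane. The amount of the enzymes is known to follow protein intake, glucagon and glucocorticoids, and loss of their function in people can raise blood ammonia. The 8 genes described here encode the 5 enzymes of the cycle (Cps1, Otc, Ass1, Asl and Arg1), the enzyme that makes the obligate activator of Cps1 (Nags), and a pair of mitochondrial carriers, Slc25a15 for ornithine and citrulline and Slc25a13 for aspartate and glutamate. They were taken as the rows of the deposited expression table whose Ensembl identifiers carry these names in the GENCODE M21 annotation, 8 of 21454 rows. Each of the 8 was above 0 in all 192 mice, and all 8 were among the 14602 genes that passed the filter on low values.

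The livers came from Diversity Outbred mice, an outbred stock in which each animal carries its own mosaic of founder strain genomes, with the genotype given as wild type. Mice were 26 weeks old and had eaten, from weaning, either standard chow (6% of its weight as fat) or a high fat diet (22%). There were 50 females on chow, 48 females on high fat diet, 48 males on chow and 46 males on high fat diet. Each liver was sequenced as 2 technical repeats (384 samples) that share 1 value per gene in the table, so every n below counts mice, and the spread within a group includes genetic differences between animals. The mice carried 1 of 2 outbreeding labels, G11L1 (97 mice) or G11L2 (95 mice). All values are RNA-seq signal, scaled by the authors to the upper quartile of each library.

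Depth, estimated from the value that 1 read takes in each library, ranged from 9.79 to 17.9 M reads with a median of 14.2 M, and its group medians lay between 13.8 and 14.6 M. Hepatocyte markers were abundant: the summed level of the 6 in the table ran from 9762 to 62330 over all mice, and no marker of any cell list was at 0 in all mice. There were 3 sets of mice that stood apart: 10 mice (9 males and 1 female) whose profiles correlated least with the others, 3 males in which transcripts of pancreas enzymes were over 100 times the median, and 1 mouse labelled female with Xist under 1. The groups also differed in summed signal over all genes, with medians of 217554 in females on chow, 198976 in females on high fat diet, 256175 in males on chow and 228459 in males on high fat diet. Most results for the 8 genes and the lists around the cycle were therefore also computed under other scalings. These were median-of-ratios factors (median-of-ratios rescaling) and quantile normalization. Many of the calls that they change are given beside the main values. Counts of cell type markers were not recomputed. Where no such value is printed, the result describes the deposited scaling.

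RefSeq promoter sequences (build GRCm38.p6) were matched to 5 of the 8 genes by symbol: Otc, Ass1, Nags, Slc25a15 and Slc25a13. All 5 fell on the high fat diet (below). The bases before the start of 4 of them are shown as examples of upstream sequence that differs widely in base composition. Capitals mark matches, on either strand, to the GC box GGGCGG or the core TGACG of the cAMP response element.
Otc (chrX:10252055-10252304, plus strand): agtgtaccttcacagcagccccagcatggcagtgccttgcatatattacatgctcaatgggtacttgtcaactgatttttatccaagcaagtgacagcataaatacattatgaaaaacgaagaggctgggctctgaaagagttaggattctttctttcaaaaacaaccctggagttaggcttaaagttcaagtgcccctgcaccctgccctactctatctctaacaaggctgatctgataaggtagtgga
Ass1 (chr2:31470020-31470206, plus strand): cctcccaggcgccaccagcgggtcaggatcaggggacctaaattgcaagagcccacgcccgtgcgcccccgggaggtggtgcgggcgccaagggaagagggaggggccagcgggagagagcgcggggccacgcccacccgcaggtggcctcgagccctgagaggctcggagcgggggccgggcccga
Nags (chr11:102145263-102145512, plus strand): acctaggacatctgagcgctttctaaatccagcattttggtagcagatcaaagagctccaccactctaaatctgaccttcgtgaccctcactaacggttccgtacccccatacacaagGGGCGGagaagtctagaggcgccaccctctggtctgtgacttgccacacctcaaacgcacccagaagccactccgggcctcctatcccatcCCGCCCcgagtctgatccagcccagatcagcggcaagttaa
Slc25a13 (chr6:6217174-6217423, minus strand): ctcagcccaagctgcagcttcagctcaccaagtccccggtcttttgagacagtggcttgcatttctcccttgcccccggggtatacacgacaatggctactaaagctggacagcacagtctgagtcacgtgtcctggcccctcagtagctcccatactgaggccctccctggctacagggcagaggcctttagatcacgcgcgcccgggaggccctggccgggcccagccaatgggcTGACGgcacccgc
The 250 bases before the RefSeq start held 43.6% G and C in Otc with 1 CG dinucleotide, against 75.6% and 23 in Ass1, 55.6% and 11 in Nags and 62.8% and 11 in Slc25a13. The median over 32851 promoters in the same table was 52.4% with 6.0 CG dinucleotides. The printed Ass1 stretch is shorter because the GENCODE gene starts upstream of the RefSeq start. In the 250 bases before the start, Nags held 2 GC boxes (132 and 41 bases before it), a motif found in 32.7% of all promoters. Slc25a13 held 1 such core of the cAMP response element 13 bases before its start, found in 17.8% of promoters. In Ass1 the match to the GC box, 63 bases before the RefSeq start, lies inside the GENCODE gene and is not printed. None of these 250-base windows of the 4 genes matched the TATA box TATAAA (12.4% of all promoters), the C/EBP motif TTGCNNAA (9.56%), the full cAMP response element TGACGTCA (1.55%) or the HNF4 motif CAAAGTCCA (0.384%), each searched on both strands. Slc25a15, not printed, has 2 RefSeq starts. The 250 bases before the upstream one held 57.6% G and C and 2 GC boxes, 44 and 9 bases before it. Those before the other start lie inside the GENCODE gene and held 80.4% and 5 GC boxes.

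By GENCODE M21 all 8 genes are protein-coding, and their positions on GRCm38 are given here from start to end of the gene. Cps1 (ENSMUSG00000025991) lies at chr1:67123026-67231259 on the plus strand, Otc (ENSMUSG00000031173) at chrX:10252305-10321024 (plus), Ass1 (ENSMUSG00000076441) at chr2:31470207-31520672 (plus) and Asl (ENSMUSG00000025533) at chr5:130011258-130029247 (minus). Arg1 (ENSMUSG00000019987) lies at chr10:24915221-24927484 on the minus strand, Nags (ENSMUSG00000048217) at chr11:102145513-102149477 (plus), Slc25a15 (ENSMUSG00000031482) at chr8:22375551-22398597 (minus) and Slc25a13 (ENSMUSG00000015112) at chr6:6041218-6217173 (minus). Each is on a chromosome of its own. Ass1 shares 38.6% of its 50-base words with the pseudogene Gm5424, so its reads could be split between them, and the signal of Gm5424 was at most 7.66% of the sum of both (median 0.115%, over 1% in 1 mouse). Nags shares 13.53% with the antisense gene Gm11586, which it overlaps and whose highest signal was 0.390, and reads of an antisense partner cannot be told apart without strand.

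Levels of different genes can be compared only per length, and on signal per kilobase of annotated exon the 8 transcripts took the same order of group means in all 4 groups. In females on chow Ass1, which joins citrulline and aspartate, stood at 202 ± 57.8 (SD, n = 50) per kilobase. Cps1, which makes carbamoyl phosphate from ammonia, stood at 193 ± 44.6 per kilobase in the same mice. These neighbours in the order did not separate, since Ass1 was above Cps1 in 127 of 192 mice. Arg1, the enzyme that releases urea, followed with 109.7 ± 18.0 per kilobase, and Otc, which makes citrulline in the mitochondrion, with 29.4 ± 3.99. Arg1 exceeded Otc in 192 of 192 mice. Asl, which splits argininosuccinate, reached 20.8 ± 5.04 per kilobase, ahead of the carriers Slc25a13 at 15.5 ± 1.85 and Slc25a15 at 13.9 ± 2.77. Asl was above Slc25a13 in 139 mice and Slc25a13 above Slc25a15 in 132, so their ranges overlapped. Nags was lowest with 4.74 ± 0.674 per kilobase and lay below Slc25a15 in 192 of 192 mice. As a share of all signal, the 8 genes together made up 1.01% ± 0.188 (SD) in females on chow, 0.818% ± 0.138 in females on high fat diet, 0.864% ± 0.160 in males on chow and 0.774% ± 0.167 in males on high fat diet.

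**Figure D1:**
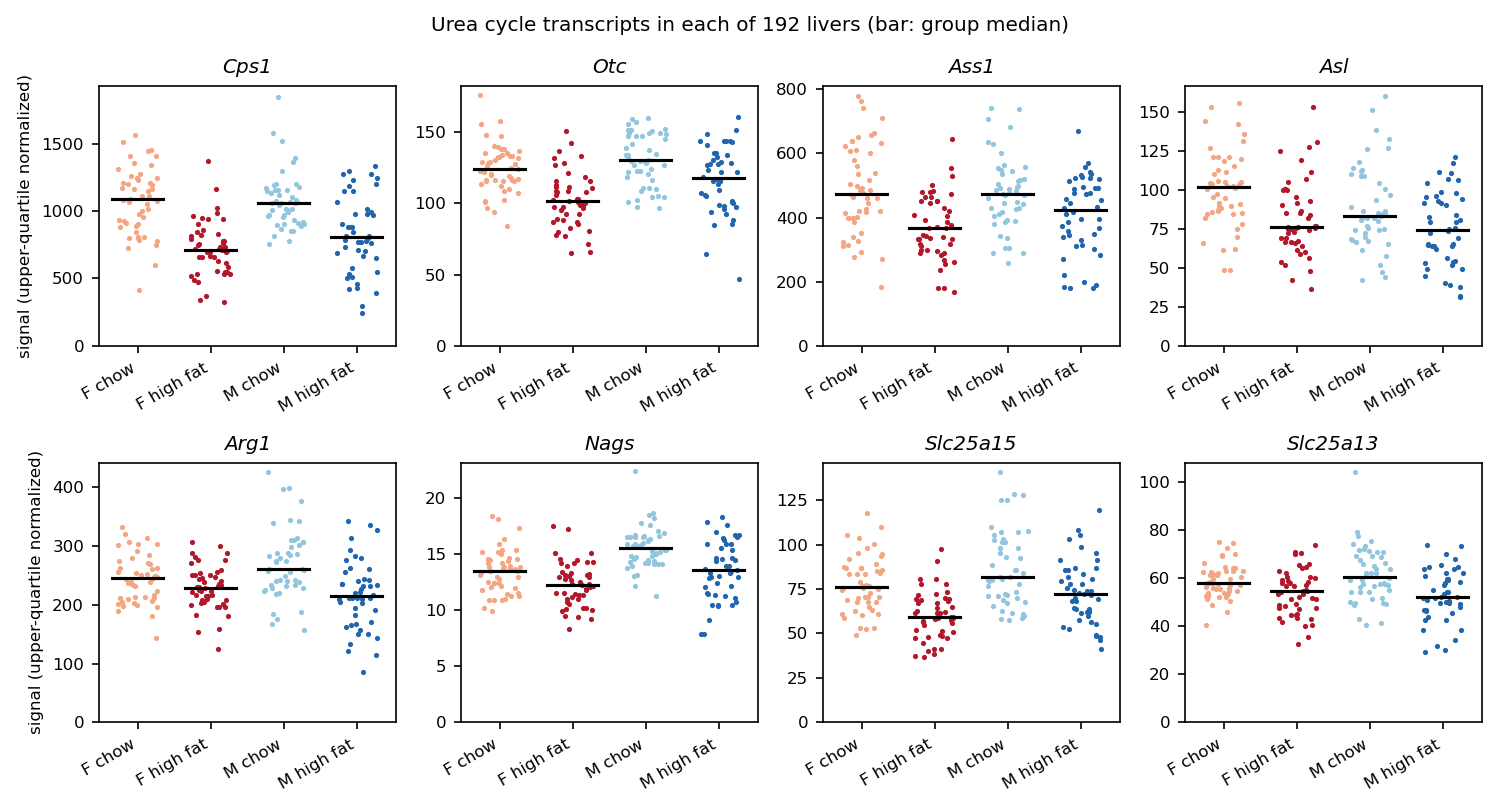
Upper-quartile normalized signal of each urea cycle gene (y axis, linear from 0, not length-corrected, own scale per gene) in each mouse (points) of the 4 groups of sex by diet (x axis), with the group median as a bar. For Cps1, the median falls from 1087 to 715 in females and from 1058 to 807 in males between chow and high fat diet, and the ranges of the groups overlap for every gene.

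All 8 transcripts were lower on the high fat diet. A limma fit over all tested genes, with the 4 groups and the generation label in the model and Benjamini-Hochberg adjustment, called 8 of 8 lower (adjusted p under 0.05) and 0 higher, where 41.9% of all tested genes were called lower and 56.9% either way. The median change of the 8 was -0.26 on the log2 scale, against -0.067 over all tested genes. Cps1 fell most, by 30.5%, and Nags least, by 11.5%. Whether this reflects fewer cells that express the genes or less RNA per cell cannot be told apart in whole liver.

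In the mitochondrial arm, Cps1 signal in females ran from 411.9 through a median of 1087 to 1566 on chow, and from 323 through 715 to 1373 on high fat diet. In males it ran from 759 through 1058 to 1848 on chow and from 241 through 807 to 1333 on high fat diet. The lower position of high fat mice was broad but not complete: 46 of 48 high fat females and 35 of 46 high fat males lay below the chow median of their sex. Of the 94, 20 lay below the lowest chow mouse of their sex, 3 females and 17 males. Cps1 fell by 0.52 ± 0.060 (SE) on the log2 scale (limma adjusted p = 4.94e-14). Nags makes N-acetylglutamate, without which Cps1 is inactive, and its signal ran from 9.95 through 13.51 to 18.4 in chow females and from 8.29 through 12.3 to 17.5 in high fat females. In males Nags ran from 11.2 through 15.6 to 22.4 on chow and from 7.84 through 13.6 to 18.3 on high fat diet. Of high fat mice, 37 of 48 females and 34 of 46 males were below the chow median of their sex, and Nags fell by 0.18 ± 0.033 on the log2 scale (adjusted p = 1.13e-06).

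Otc, an X-linked gene that joins carbamoyl phosphate to ornithine, ran from 84.0 through 124 to 176 in chow females and from 64.8 through 101 to 151 in high fat females. In males its signal ran from 96.9 through 130.0 to 159.8 on chow and from 47.1 through 118 to 160.2 on high fat diet. The groups shared most of their range, with 41 of 48 females and 32 of 46 males on high fat diet below the chow median. Otc fell by 0.24 ± 0.037 on the log2 scale, a decrease of 15.3% (limma adjusted p = 1.04e-08).

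Among the cytosolic enzymes, Ass1 ran from 185 through 474 to 779.8 in chow females and from 168 through 367 to 645 in high fat females. In males it ran from 259 through 475 to 743 on chow and from 179 through 424.03 to 671 on high fat diet. The 41 of 48 high fat females below the chow median compare with 29 of 46 high fat males, and Ass1 fell by 0.33 ± 0.062 on the log2 scale (20.4%, limma adjusted p = 1.47e-06). Asl, whose product is arginine, ran from 48.4 through 102 to 156 in chow females, 36.2 through 76.3 to 153 in high fat females, 42.4 through 83.0 to 160.2 in males on chow and 31.3 through 74.3 to 121 in males on high fat diet. High and low mice occurred on both diets, and it fell by 0.29 ± 0.062 on the log2 scale (18.3%, adjusted p = 2.21e-05). Arg1 ran from 144 through 246 to 333 in chow females, 125 through 229 to 307 in high fat females, 158 (lowest) through 260.4 (median) in males on chow, with the highest at 2.69 times the lowest, and 85.9 through 214 to 343 in males on high fat diet. Its fitted change in females was the smallest of the 8 (given below), and over both sexes it fell by 0.22 ± 0.045 on the log2 scale (13.9%, adjusted p = 1.61e-05).

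Of the carriers, Slc25a15, which exchanges ornithine for citrulline, ran from 49.0 through 76.2 to 118 in chow females and from 36.9 through 59.4 to 97.4 in high fat females. In males it ran from 57.4 through 81.7 to 141 on chow and from 41.5 through 72.5 to 119.7 on high fat diet. With Cps1 it had the most high fat mice below the lowest chow mouse of their sex, 20 of 94, and it fell by 0.31 ± 0.047 on the log2 scale (19.4%, limma adjusted p = 5.16e-09). Slc25a13, which delivers mitochondrial aspartate for Ass1, ran from 40.4 through 57.9 to 75.1 in chow females, 32.75 through 54.4 to 73.8 in high fat females, 40.3 through 60.4 to 104 in males on chow and 29.3 through 52.1 to 73.7 in males on high fat diet. It had the fewest high fat mice below the chow median of their sex among the 8, 64 of 94, and it fell by 0.19 ± 0.037 on the log2 scale (12.1%, adjusted p = 6.08e-06).

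Within generation labels, limma called 8 of 8 lower in G11L1 mice alone (29.9% of all genes) and 8 of 8 in G11L2 mice alone (32.9%). Cps1 stood at -0.52 and -0.53. The count was also 8 of 8 without the 10 least alike mice (41.4% of all genes) and without the 3 males with pancreas transcripts (41.8%). It was 8 of 8 too without the mouse with low Xist (42%). The count differed between scalings. After median-of-ratios rescaling, which moved the median change of all genes to 0.0054, 8 of 8 were called lower (22.9% of all genes), with Cps1 at -0.45 and a median of -0.19 over the 8. After quantile normalization 6 of 8 were called lower (25% of all genes), Arg1 at -0.015 (adjusted p = 0.784) and Slc25a13 at -0.051 (adjusted p = 0.119) no longer passing. The log2 ratio of Cps1 to each of the other 7 genes was lower on the high fat diet, by 0.20 for Ass1 to 0.35 for Nags (two-sided permutation of diets within sex and generation, adjusted p from 1.4e-05, the smallest that 100000 resamples can give after adjustment over 7 ratios, to 0.00015). These ratios were chosen after the fold changes had been seen.

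**Figure D2:**
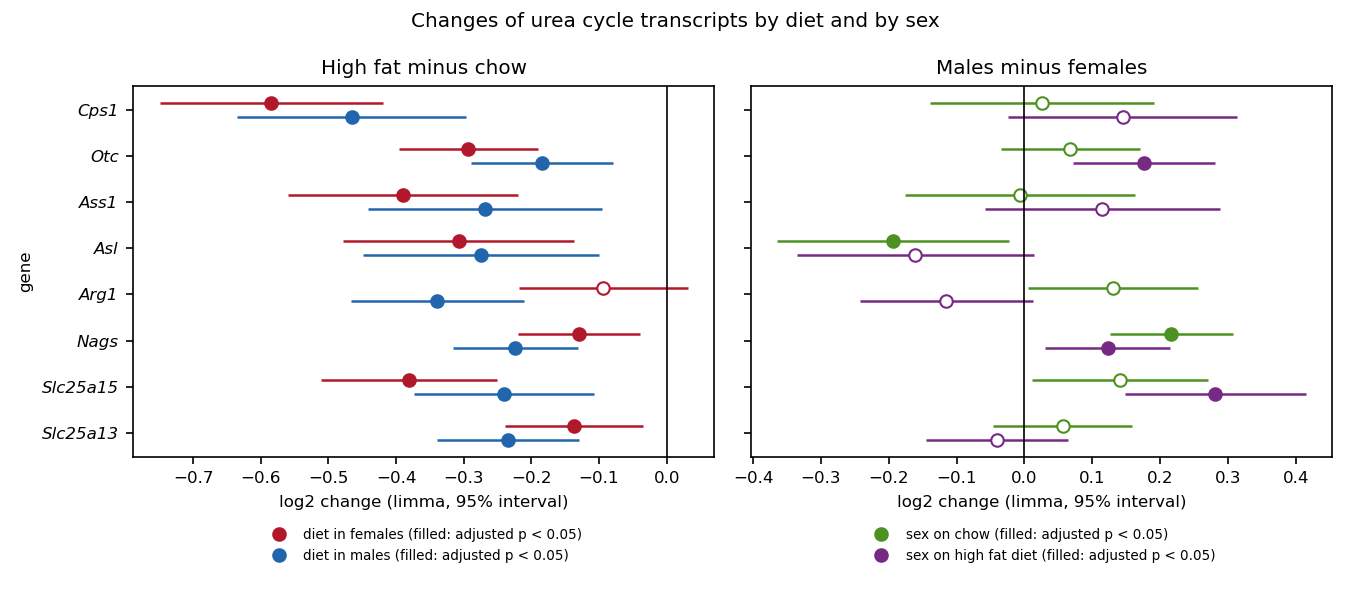
Log2 change of each urea cycle gene (points, limma estimate with 95% interval) for high fat minus chow in each sex (left) and for males minus females on each diet (right), filled where the adjusted p is under 0.05. On the left, 15 of the 16 points are filled and all lie below 0, and on the right only Nags is filled on both diets.

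Within each sex, 7 of 8 genes were called lower in females, where 23.3% of all tested genes were (33.3% either way), and 8 of 8 in males, where 39.8% were (51.2% either way). The exception in females was Arg1, at -0.093 ± 0.063 (SE, adjusted p = 0.259), while in males it fell by 0.34 ± 0.065 (adjusted p = 3.77e-06). The difference between the sexes itself was not called for any of the 8 (8.38% of all tested genes, 1.46% with a higher and 6.92% with a lower difference in males), and 1 of 8 had an unadjusted p under 0.05. That gene was Arg1, with a difference of -0.25 on the log2 scale (95% interval -0.42 to -0.067, adjusted p = 0.0676). With array weights it passed (adjusted p = 0.0385), and over the alternatives its adjusted p ranged up to 0.358. For Cps1 the difference between the diet changes of the sexes was 0.12 (95% interval -0.12 to 0.35, adjusted p = 0.573). The count in males depended on scaling: it was 4 of 8 after median-of-ratios rescaling (Cps1, Arg1, Nags and Slc25a13, against 16.8% of genes) and 1 of 8, Cps1, after quantile normalization (18.5% of genes). In females the count after median-of-ratios rescaling was 5 of 8 (14.7% of genes) and after quantile normalization 4 of 8 (15.3%).

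Hepatocyte markers moved with the diet as well. Of the 6 tested, 4 were called lower and 0 higher (41.9% and 15% of all genes), and their summed level had group medians of 24832 in females on chow against 22261 on high fat diet, and 22247 against 17969 in males. The ranges were 15487 to 37999.5 in females on chow, 15093 to 62330 in females on high fat diet, 13558 to 33492 in males on chow and 9762 to 36514 in males on high fat diet. Neutrophil markers were called higher for 3 of 4 and lower for 1 of 4, with summed group medians between 0.771 and 1.35 and a highest value of 5.48. Both tested adipose markers were called higher, with summed ranges of 0.238 to 1.99 in females on chow, 0.309 to 3.88 in females on high fat diet, 0.20 to 6.39 in males on chow and 0.290 to 26.0 in males on high fat diet, and with Plin1 at 0 in most mice. Of the other lists, 2 of 7 Kupffer cell, 2 of 6 stellate cell and 2 of 4 bile duct markers were called higher and 0 lower, endothelial markers 1 higher and 2 lower of 6, and 0 of 6 markers of T, NK and B cells either way. Within sexes, Kupffer cell markers were called 0 higher and 2 lower in females (10% and 23.3% of all genes). In males they were called 3 higher and 0 lower (11.4% and 39.8%). The difference between the sexes was called for 0 of 7. Of pancreas markers 1 of 8 and of erythroid markers 1 of 3 were lower, and of muscle markers 0 of 3 were called. The part of these cell markers in the urea cycle result was not tested.

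Sex differences among the 8 genes were smaller and not in 1 direction. Limma called 3 genes higher in males (45% of all tested genes were) and 1 lower (23.5%), where 68.5% of all genes were called either way. With median-of-ratios factors the split was 2 higher to 2 lower (30.4% and 33.5% of genes), and with quantile normalization 2 to 5 (33.7% and 30.3%). Nags, the activator enzyme, was higher in males by 0.17 ± 0.033 on the log2 scale (adjusted p = 1.51e-06), and 75 of 94 males lay above the female median of their diet. Slc25a15 was higher by 0.21 ± 0.047 (adjusted p = 3.19e-05), with 67 of 94 males above the female median of their diet. Otc was higher by 0.12 ± 0.037 (adjusted p = 0.00225), with 63 of 94. Asl was lower in males by 0.18 on the log2 scale (SE 0.062, adjusted p = 0.0079), with 35 of 94 males above the female median of their diet. The calls for Nags and Slc25a15 were also made in each generation label alone and under both other scalings. Otc did not pass after median-of-ratios rescaling (0.034, adjusted p = 0.35) or quantile normalization (0.0043, adjusted p = 0.899), nor in G11L2 mice alone (0.12, adjusted p = 0.0852). Asl did not pass in G11L1 mice alone (-0.16, adjusted p = 0.101) or G11L2 mice alone (-0.20, adjusted p = 0.0573). Cell markers also differed by sex: 7 of 7 Kupffer cell, 6 of 6 T, NK and B cell and 5 of 6 endothelial markers were lower in males, and 4 of 6 hepatocyte markers were higher and 1 lower. The summed Kupffer cell markers had medians of 93.4 in females and 58.6 in males on chow, and 98.3 and 70.3 on the high fat diet. Their part in the sex differences was not tested.

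For the other 4 genes the direction of the sex difference turned with the scaling, and none was called as deposited. Cps1 was 0.086 higher in males on the log2 scale as deposited (adjusted p = 0.197), -0.0025 with median-of-ratios factors and -0.37 after quantile normalization (adjusted p = 5.97e-10). Ass1 moved from 0.054 (adjusted p = 0.439) to -0.034 and -0.23 (adjusted p = 0.00027) in the same order. Arg1 went from 0.0077 to -0.080 and -0.16, passing as lower under the last. Slc25a13 went from 0.0079 to -0.080 and -0.067, passing as lower under both. On chow alone, Nags was higher (0.22, adjusted p = 1.36e-05) and Asl lower in males (-0.19, adjusted p = 0.0429), 2 of 8 where 63.3% of all genes were called. On the high fat diet 3 of 8 were higher, Otc, Nags and Slc25a15, and 0 lower, where 49.7% of all genes were called either way.

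The generation label was associated with 0 of 8 genes at an adjusted p under 0.05 (limma; 0.938% of all genes), with 2 of 8, Cps1 and Asl, at an unadjusted p under 0.05. Coat colour, compared in 186 mice, gave 0 of 8 calls for white against agouti (0.0137% of genes) and 0 of 8 for black against agouti (0.089%, of which 0.0342% higher and 0.0548% lower), with 0 and 1 at an unadjusted p under 0.05. Nags was that gene, at 0.095 ± 0.046.

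Mice differed more among themselves on the high fat diet for Cps1. The SD of its log2 signal was 0.37 in chow females, 0.42 in high fat females, 0.26 in males on chow and 0.58 in males on high fat diet. In high fat males the highest mouse had 5.54 times the Cps1 signal of the lowest, and in chow males 2.44 times. The distance of a mouse from its group median was larger on the high fat diet by 0.14 ± 0.039 on the log2 scale for Cps1 (limma adjusted p = 0.0359), the 1 call among the 8 (2.23% of all genes, 1.86% larger and 0.363% smaller). With a pseudocount 10 times larger 2 of 8 were called (3.27% of genes larger). Without the 10 least alike mice, after either other scaling, with array weights, with rank scores and in either generation label alone, 0 of 8 were called. In these settings 0.151% to 1.75% of genes were called larger. By sex, 1 of 8 was called, Arg1, with males farther from their median by 0.091 ± 0.029 (adjusted p = 0.0469; 4.9% of genes, 4.27% larger), and this too was lost without the 10 least alike mice. Nags scattered least, with a residual SD of 0.22 on the log2 scale against 0.43 for Asl, the highest of the 8.

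The 8 transcripts varied together from mouse to mouse after the means of group and generation had been removed. Over 192 mice, 28 of 28 pairs had a positive Pearson r, from 0.28 to 0.73 with a median of 0.47, and all 28 passed a two-sided permutation test (100000 resamples within group and generation, Benjamini-Hochberg over the 28 pairs, adjusted p from 1.12e-05, set by the smallest p the resamples can give, to 0.00014). Spearman's rho ran from 0.26 to 0.71, and r without the 2 mice farthest from the median of the first gene ran from 0.25 to 0.71. Every library adds its own scaling error to all its genes, and the median r of a member with all other tested genes was 0.062 (Arg1) to 0.12 (Slc25a13). The upper quartile of that r ran from 0.18 (Arg1) to 0.29 (Slc25a13). The share of all genes that would be called with each member was not computed. The median r of a member with the others was exceeded by 0.0754% (Cps1) to 18.1% (Slc25a13) of tested genes. A first component held 56.3% of the variance of the 8.

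As deposited, the closest pairs were those among the 3 cytosolic enzymes, while after quantile normalization Cps1 with Ass1 (0.62) was closest. Asl and Arg1 had r = 0.73 (rho 0.71), Ass1 and Arg1 0.72 (rho 0.67) and Ass1 and Asl 0.71 (rho 0.68). Cps1 followed Ass1 with r = 0.68, and Otc followed Cps1 with 0.63 and Slc25a13 with 0.61. The loosest pair was Ass1 and Slc25a13, with r = 0.28 (rho 0.26). The 3 cytosolic pairs kept r of 0.68 to 0.69 with median-of-ratios factors and 0.56 to 0.60 after quantile normalization. The loose end depended on the scaling: 25 of 28 pairs passed after median-of-ratios rescaling (r from 0.073 to 0.69) and 19 of 28 after quantile normalization (-0.050 to 0.62). The pairs lost under median-of-ratios rescaling were Otc with Nags (0.13), Ass1 with Slc25a13 (0.13) and Nags with Slc25a13 (0.073).

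**Figure D3:**
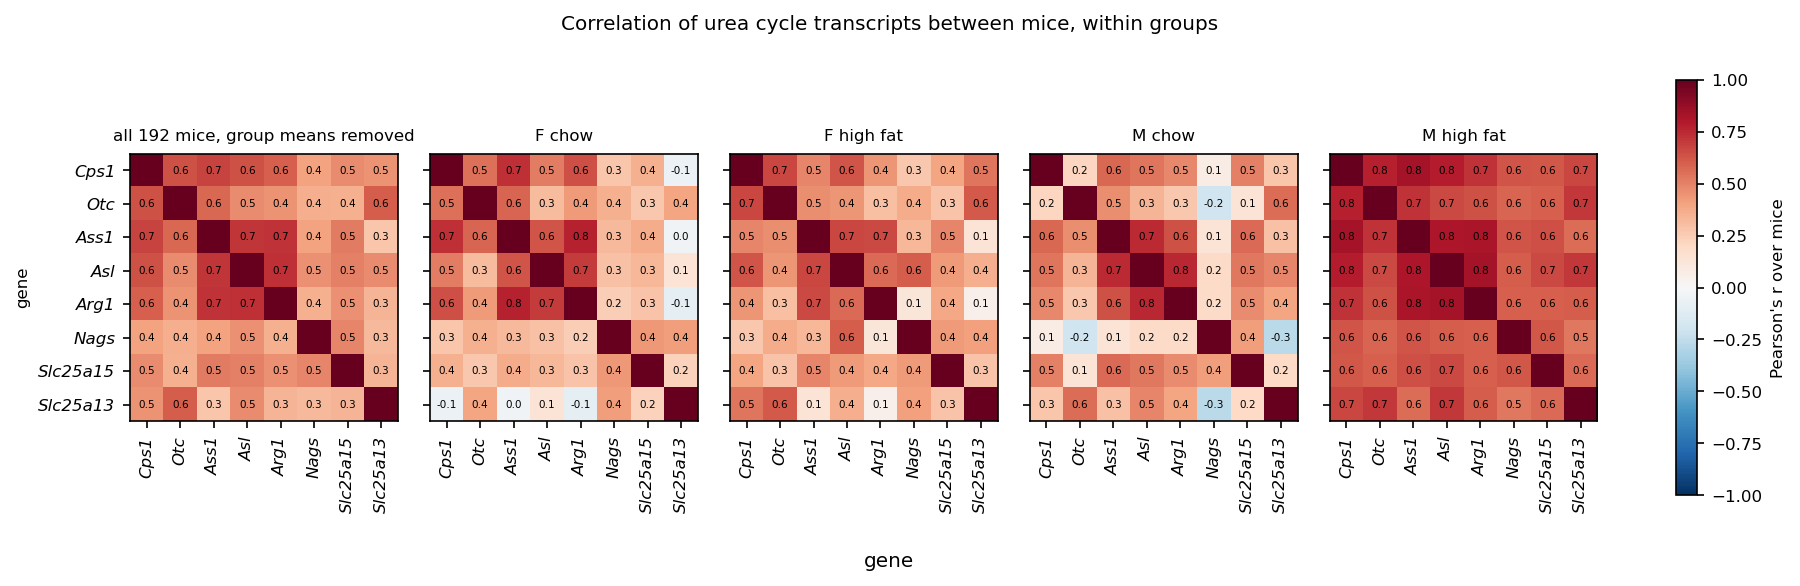
Pearson's r between each pair of urea cycle genes (axes: genes) over all 192 mice with the means of group and generation removed, and within each of the 4 groups. In high fat males every pair lies between 0.52 and 0.84, and in chow males Nags is negative with Otc (-0.20) and with Slc25a13 (-0.27).

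Within groups, high fat males had r from 0.52 to 0.84 (median 0.64, n = 46) over the 28 pairs, high fat females from 0.050 to 0.67 (median 0.43, n = 48), chow males from -0.27 to 0.75 (median 0.40, n = 48) and chow females from -0.087 to 0.77 (median 0.35, n = 50). The differences between groups were not tested. Of the 10 least alike mice, 5 were high fat males and 4 chow males, and without them the range in high fat males was 0.40 to 0.84 (median 0.55, n = 41) and in chow males -0.12 to 0.72 (median 0.38, n = 44). After quantile normalization high fat males ranged from 0.12 to 0.75 (median 0.38).

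The genes most like each member over the 192 mice were picked as the 3 highest r among all named genes tested, and are a description. Gls2, the liver glutaminase that frees ammonia from glutamine in periportal mitochondria, led for Ass1 (r = 0.81) and Arg1 (0.66) and came after Crcp for Asl (0.73). After quantile normalization the r of Gls2 with these genes was 0.68, 0.47 and 0.64 in that order. Asl was most like Crcp (r = 0.77, and 0.71 after quantile normalization), a gene on the opposite strand of chromosome 5 (chr5:130029290-130060789, GENCODE M21) whose start lies 43 bases from that of Asl (chr5:130011258-130029247). Strand use in the counting is not given in the sources used here, but the annotated genes do not overlap. Crcp was also among the 3 genes most like Arg1, which lies on chromosome 10 (r = 0.65, and 0.48 after quantile normalization). Crcp itself changed less with diet, at -0.13 ± 0.044 on the log2 scale (limma adjusted p = 0.00893), than the -0.29 of Asl, a difference that was not tested.

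Otc was most like Aifm1 (r = 0.80), Uqcrc2 (0.77) and Ndufa9 (0.76), which encode proteins of mitochondrial respiration. Slc25a13 was most like Aldh6a1 (0.79), Nadk2 (0.78) and Opa1 (0.75), also mitochondrial. Cps1 was like Eprs (0.67) and Mthfd1 (0.66), Slc25a15 like Kynu (0.63), Hgd (0.60) and Slc25a51 (0.59), and Nags like Ptms (0.67), Ninj1 (0.66) and Stk11 (0.65). Kynu and Hgd are enzymes of amino acid breakdown. After quantile normalization r was 0.35 for Cps1 with Eprs, 0.46 for Otc with Uqcrc2 and 0.47 for Otc with Ndufa9, and for the others of these pairs 0.44 to 0.59.

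**Figure D4:**
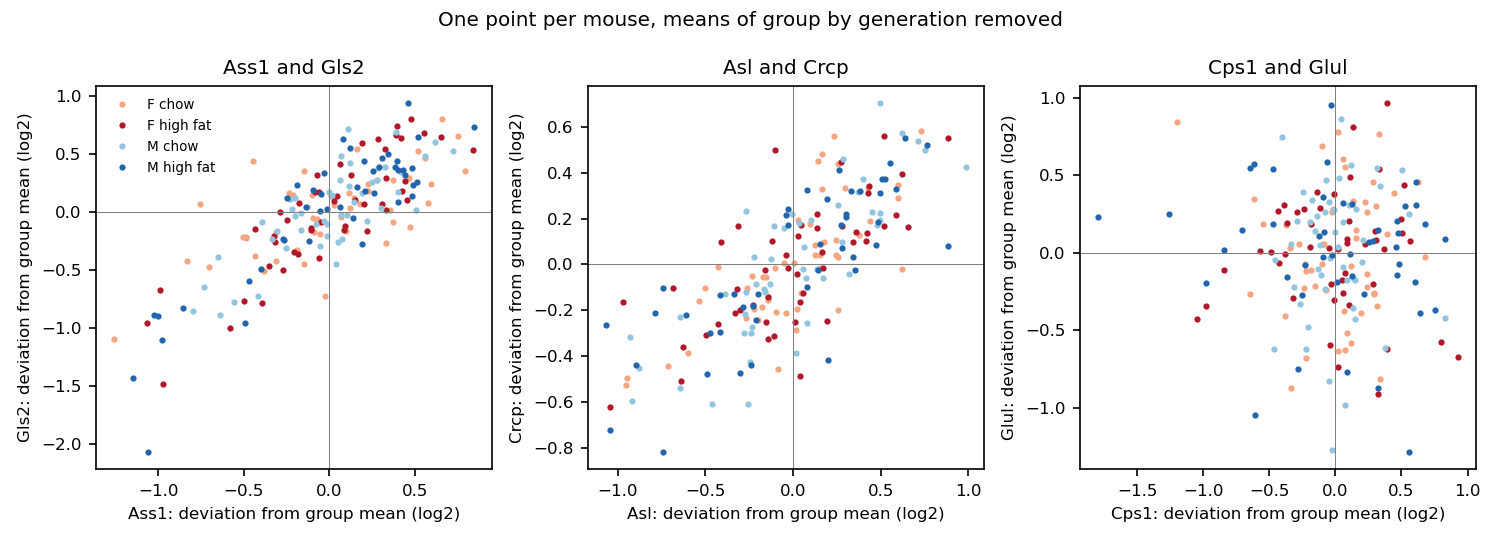
Deviation of each mouse from the mean of its group and generation (log2, both axes) for Ass1 and Gls2, Asl and Crcp, and Cps1 and Glul, with points coloured by group. The first pair has r = 0.81, the second 0.77, and Cps1 with Glul has r = -0.049.

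The list of genes that feed the cycle with ammonia and aspartate held 15 genes, all tested, and limma called 9 lower and 1 higher on the high fat diet (41.9% and 15% of all tested genes were), with a median change of -0.18. The 3 with the smallest p were Slc25a22, a mitochondrial glutamate carrier (-0.39 ± 0.050, adjusted p = 5.3e-12), Gls2 (-0.53 ± 0.068, adjusted p = 9.33e-12) and the glutamine transporter Slc38a2 (-0.39 ± 0.067, adjusted p = 2.07e-07). Gls2 signal had group means of 98.6 ± 24.0 (SD) in females on chow, 66.8 ± 21.5 in females on high fat diet, 81.8 ± 21.3 in males on chow and 62.2 ± 20.4 in males on high fat diet. Its decrease of 30.6% compares with 30.5% for Cps1. After quantile normalization the list had 4 lower and 3 higher, where 25% and 21.1% of all genes were, shares near those of the list. Of its 15 genes, 12 were positively correlated with all 8 members as deposited (adjusted over 520 pairs of members and pathway genes). With median-of-ratios factors only Gls2, Gpt and Fh1 were called with all 8, and with quantile normalization none was, Gls2 and Gpt coming to 7 of 8. As deposited, r of Gls2 with the members ran from 0.42 to 0.81, and that of the alanine aminotransferase Gpt (named after its r was seen) from 0.34 to 0.70. Over all 520 pairs, 320 were called positive and 30 negative, and after quantile normalization 166 and 48. The share of all tested genes that would be called with each member was not computed. Tat, with a lowest r of 0.16, was called with all 8. The upper quartile of r with all other tested genes ran from 0.18 (Arg1) to 0.29 (Slc25a13). These counts are therefore not read as particular to the lists.

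In the arginine and ornithine branches calls went both ways. Of 14 tested genes 3 were called lower and 4 higher on the high fat diet (41.9% and 15% of all genes). With median-of-ratios factors these counts were 2 and 5 (22.9% and 24.9% of genes), and after quantile normalization 1 and 4 (25% and 21.1%). Agmat, which splits agmatine, (-0.25 ± 0.050) and the arginine transporter Slc7a2 (-0.31 ± 0.077; adjusted p = 0.0528 after quantile normalization) fell, and Aldh18a1, which makes the precursor of proline and ornithine, rose by 0.28 ± 0.076 (limma adjusted p = 0.000675). Chosen after the r values were seen, Aldh18a1 and Slc7a1, another arginine transporter, were the 2 genes of all lists with a negative r called with all 8 members, from -0.43 to -0.17 and from -0.41 to -0.23. After quantile normalization these counts were 2 and 3 of 8. By sex, 12 of the 14 were lower in males and 0 higher (23.5% and 45% of all genes), with 9 lower on chow alone and 6 on the high fat diet alone, among them Ddah1, which breaks down methylated arginines (-1.21 ± 0.12), the creatine synthesis gene Gamt (-0.42 ± 0.045) and the proline breakdown gene Aldh4a1 (-0.29 ± 0.044). With median-of-ratios factors 13 were lower in males (33.5% of genes), and after quantile normalization 10 (30.3%).

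Glul, the glutamine synthetase of hepatocytes around the central vein that takes up ammonia the cycle leaves, was higher on the high fat diet. It rose by 0.21 ± 0.061 on the log2 scale (limma adjusted p = 0.00205; 0.139 in G11L1 mice alone), with group means of 156 ± 46.0 (SD) in females on chow, 163 ± 43.0 in females on high fat diet, 127 ± 36.3 in males on chow and 160.3 ± 44.0 in males on high fat diet. The change was 0.35 in males (adjusted p = 0.000394) and 0.069 in females (adjusted p = 0.57), and their difference, 0.28, was not called (adjusted p = 0.136). Glul was called with 0 of 8 members, r from -0.080 to 0.12, and after quantile normalization it was negative with 3 of 8. Oat, the ornithine aminotransferase found beside Glul around the central vein, fell by 0.51 ± 0.10 (adjusted p = 6.23e-06), and Slc1a2 had -0.27 ± 0.090 (adjusted p = 0.00662), which did not pass after either other scaling. All 3 were lower in males over both diets (23.5% of all genes) and on chow (19.1%), and 1 of 3 was on the high fat diet alone (18.3%). The sex call of Glul was lost in G11L1 alone (adjusted p = 0.10) and in G11L2 alone (adjusted p = 0.0803), and that of Slc1a2 in G11L2 alone (adjusted p = 0.166).

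**Figure D5:**
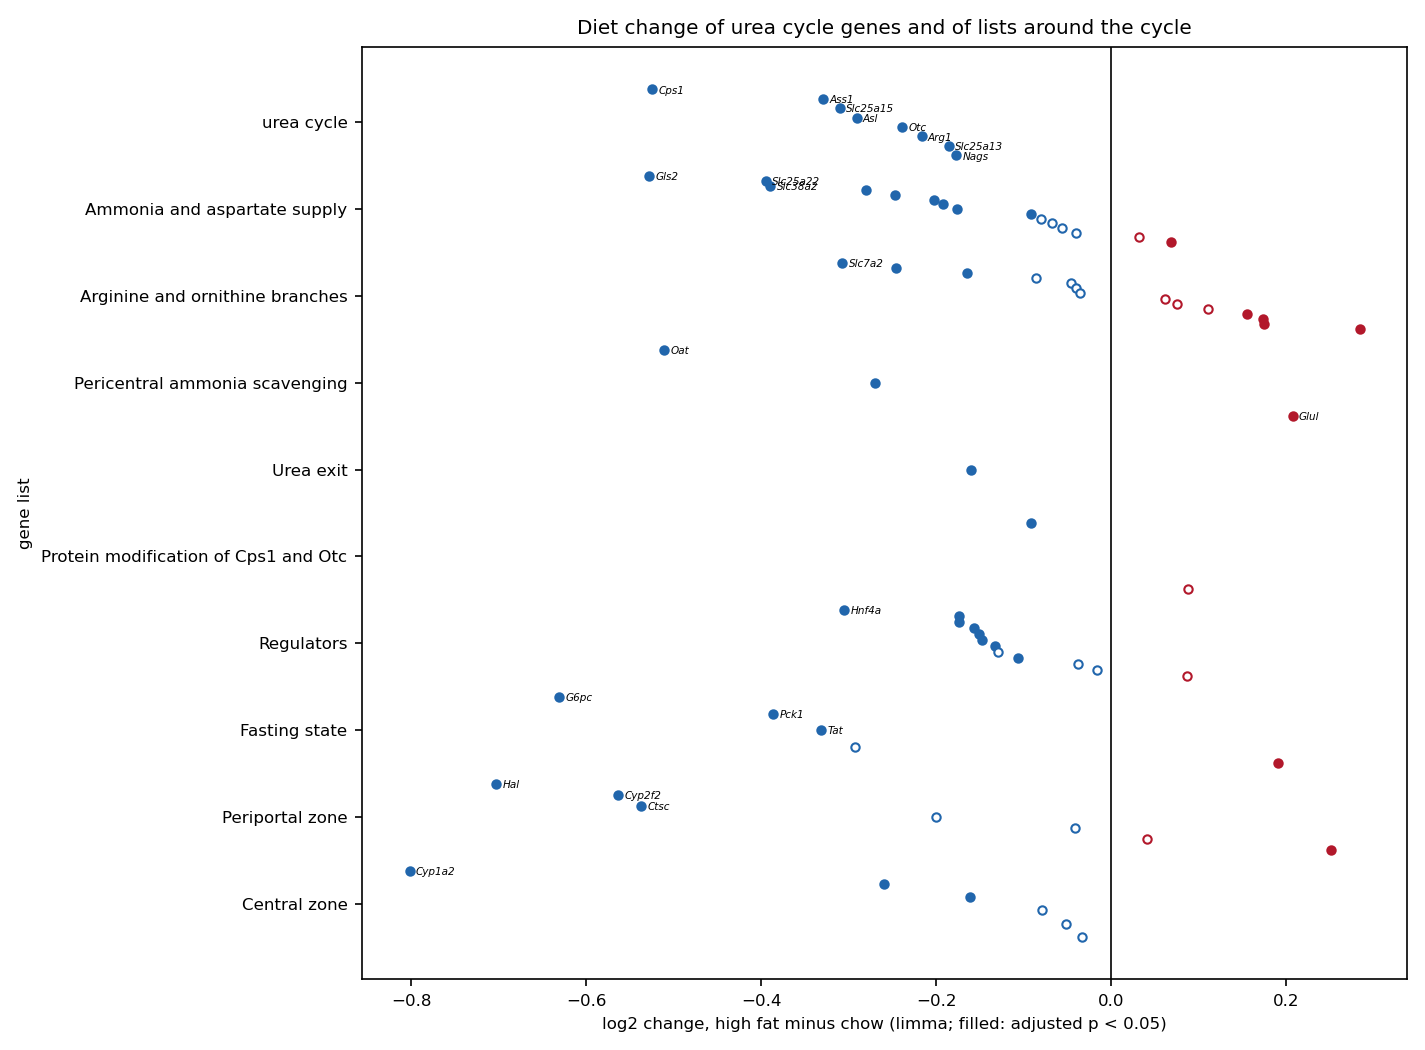
Log2 change on the high fat diet (x axis, limma, high fat minus chow) of the urea cycle genes and of the tested genes of 9 lists around the cycle (y axis), filled where the adjusted p is under 0.05. All 8 urea cycle genes are filled and lie below 0, while Glul and 4 of 14 genes of the arginine and ornithine branches are filled above 0.

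Of 12 regulators known to act on the cycle 8 were called lower and 0 higher (41.9% and 15% of all genes). The count lower was 4 with median-of-ratios factors (22.9% of genes) and 3 with quantile normalization (25%). As deposited, Hnf4a changed by -0.31 ± 0.036 (limma adjusted p = 1.73e-13) and Creb1 by -0.17 ± 0.031. Over the alternatives other than rank scores, Hnf4a ran from -0.37 to -0.17 and Creb1 from -0.19 to -0.091. Klf15 and Gcgr are named for their r, after it was seen. Klf15, a glucocorticoid-induced regulator of amino acid breakdown, was positively correlated with all 8 members (r from 0.32 to 0.65), with 8 of 8 called with median-of-ratios factors and 5 of 8 after quantile normalization. The glucagon receptor gene Gcgr was correlated with all 8 as deposited (0.21 to 0.53) and with 1 of 8 after quantile normalization. Of 5 fasting genes 3 were lower (1 after quantile normalization), with G6pc at -0.63 ± 0.12, and Cpt1a, the gate of mitochondrial fatty acid oxidation, rose by 0.19 ± 0.044. Among the deacylases that act on Cps1 and Otc protein, Sirt3 changed by -0.092 ± 0.038 (adjusted p = 0.0312; -0.014 and 0.015, not called, after the other scalings) and Sirt5 by 0.087 ± 0.062 (adjusted p = 0.223). Aqp9, a channel that carries urea, fell by 0.16 ± 0.041 as deposited and was not called after either other scaling.

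As deposited, the counts among markers of the lobule's zones were near the all-gene shares of 41.9% lower and 15% higher. Of 7 periportal genes 3 were lower and 1 higher. These periportal counts were the same with median-of-ratios factors (22.9% lower and 24.9% higher over all genes) and after quantile normalization (25% and 21.1%). Hal, the first enzyme of histidine breakdown, fell by 0.70 ± 0.070 on the log2 scale (limma adjusted p = 3.36e-17), Cyp2f2 by 0.56 ± 0.075 and Ctsc by 0.54 ± 0.058. Of 6 central genes 3 were lower and 0 higher. With median-of-ratios factors 2 were lower (22.9% of all genes), and after quantile normalization also 2 (25%). Cyp1a2 fell by 0.80 ± 0.072 (adjusted p = 4.4e-20) and Lgr5 by 0.26 ± 0.081, while Cyp2e1 had -0.16 ± 0.061 (adjusted p = 0.0171) and 0.036, not called, after quantile normalization. Hal was positively correlated with all 8 members (r from 0.34 to 0.65) and with 5 of 8 after quantile normalization, Ctsc with 0 and negatively with 1. Cyp1a2 was positively correlated with all 8 as deposited (0.18 to 0.37), with 3 of 8 using median-of-ratios factors and with 1 of 8 after quantile normalization.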

How the data were processed

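Liver RNA was sequenced as single-end reads of 100 bases in 384 samples, 2 technical repeats of each of 192 mice, and the deposited table holds 1 column per mouse. Its values are signal per gene that the authors scaled to the upper quartile of each library, per the deposited table's title. Builds GRCm38 and mm10, and CASAVA 1.8.0, are named in the submitters' processing notes, and the aligner, the counter and its use of strand are not given in the sources used here. The 21454 identifiers were named from GENCODE M21 (21022 matched). Depth was estimated from the value that 1 read takes in each library. Between 76.8% and 82.4% of values came out within 0.1 of whole reads, so no count test was run.

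Values were tested as log2(value + 0.0629), and fold changes are on that scale, which understates changes of low genes. Genes above 0 in at least 46 mice with a mean of at least 0.0629 were kept (14602). Limma 3.58.1 (R 4.3.3, trend) fitted the 4 groups plus generation label over all these genes, with Benjamini-Hochberg adjustment and a threshold of 0.05. Coat colour was fitted in 186 mice. Spread was tested as the distance from the group median. Correlations used deviations from the means of group and generation, with 100000 permutations within these, in Python 3.11.15 (numpy 2.4.6). The fit and the correlations were tested on simulated data. Named were all 8 genes, up to 3 genes of each list with the smallest p by sex and by diet, and the 3 genes of highest r with each member. Some genes that this rule names are not reported here. The 8 genes and all lists were chosen with earlier results of these data known. Alternatives changed the pseudocount, filter, scaling, weights, model and mice used. Promoter sequences are RefSeq's reference, not those of these mice.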

Additional observations from a re-analysis of the deposited data

Results flagged for a closer look

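The diet change differed between the sexes for 4 genes of the zone lists, 2 of 6 central and 2 of 7 periportal (8.38% of all tested genes). The test was limma's interaction of sex and diet with adjustment over all tested genes. These 4 calls were not checked under the other scalings or within a generation label. There the count over all genes fell from 1223 to 617 after median-of-ratios rescaling and to 54 in G11L2 mice alone. For Cyp1a2, a cytochrome of the central zone, the change was -1.16 in females and -0.45 in males on the log2 scale, a difference of 0.71 (adjusted p = 0.000423). For Gulo, which makes vitamin C, it was -0.30 in females and 0.14, not called, in males, a difference of 0.44 (adjusted p = 0.00948). The periportal genes were Hsd17b13, with 0.40 in females, 0.10, not called, in males and a difference of -0.30 (adjusted p = 0.0327), and Sdsl, with 0.12, not called, in females, -0.20 in males and a difference of -0.32 (adjusted p = 0.0386). No such difference was called for any of the 8 urea cycle genes.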

How the results depend on the processing

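Over all alternatives, 8 of 8 urea cycle genes were called lower on the high fat diet except after quantile normalization (6 of 8), and no sign turned. The share of all genes called lower ran from 22.9% after median-of-ratios rescaling to 52.2% with a stricter filter on low values. With the mouse number as a replicate block (92 pairs of a female and a male that share a number, consensus correlation 0.0201, median correlation of deviations 0.00432, 9 pairs over 0.1) the counts were 8 by diet, 4 by sex, 7 and 8 by diet in females and males and 0 for the interaction, as without it; the mice share only a number. The count by sex (4) was 7 after quantile normalization, 2 higher and 5 lower (33.7% of all genes higher, 30.3% lower). It was 2 in G11L2 mice alone (36.5%, 18.6%). On chow (2) it was 1 without the filter (31.4%, 14.8%), in G11L1 alone (36.6%, 13.8%) and in G11L2 alone (33.7%, 14%). It was also 1 without the female with low Xist (43.8%, 19.1%), and 4 with array weights (45.2%, 19.2%). On the high fat diet (3) it was 5 after quantile normalization, 1 higher and 4 lower (25%, 23.1%), and 0 in G11L2 alone (20.4%, 12.1%). The diet count in females (7) was 4 after quantile normalization, 4 in G11L1 and 3 in G11L2, and in males (8) it was 4 after median-of-ratios rescaling, 1 after quantile normalization, 5 in G11L1 and 5 in G11L2. The interaction count (0) was 1 with array weights. The spread count by diet (1) was 2 with a larger pseudocount (3.27% of all genes larger) and without the low-Xist female (1.82%). It was 0 after both scalings, with rank scores, with array weights, in either generation and without the 10 least alike mice. In these settings 0.151% to 1.75% of all genes were called larger. By sex (1) the spread count was 0 with a smaller pseudocount, after both scalings, with rank scores and with array weights. It was also 0 in G11L1, and without the 10 least alike mice or the low-Xist female. In these settings 0.979% to 4.34% of all genes were called larger in males. Calls between members and pathway genes numbered 214 after quantile normalization against 350. The fits of 1 generation label hold 97 or 95 of the 192 mice; the causes of the other changes were not tested.

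Signs turned as follows (log2). By sex, median-of-ratios rescaling and quantile normalization gave -0.0025 and -0.37 for Cps1, -0.034 and -0.23 for Ass1, -0.080 and -0.16 for Arg1 (G11L2 -0.061), -0.080 and -0.067 for Slc25a13 (G11L2 -0.031), -0.080 and -0.076 for Aqp9 (G11L1 -0.024), and -0.085 and -0.098 for Sirt3 (G11L2 -0.011, without the pancreas mice -0.0051). On chow they gave -0.093 and -0.42 for Cps1 (rank scores -0.0023, G11L1 -0.097), -0.051 and -0.063 for Otc, and -0.062 and -0.043 for Slc25a13, and quantile normalization gave -0.051 for Arg1. Ass1 on chow was 0.0058 with array weights, 0.030 in G11L2 and 0.024 without the 10 least alike mice. On the high fat diet quantile normalization gave -0.32 for Cps1 and -0.13 for Ass1, and G11L1 gave 0.0020 for Slc25a13. By diet, quantile normalization gave 0.015 for Sirt3, 0.036 for Cyp2e1 and, in females, 0.094 for Arg1, and G11L1 gave -0.022 for Sirt5. The Cps1 interaction was -0.070 in G11L2. The cause was not tested.

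Over all genes, the interaction count of 1223 was 617 after median-of-ratios rescaling, 630 after quantile normalization, 546 in G11L1 and 54 in G11L2. The diet count in males of 7479 was 4916 after quantile normalization, 5011 and 4930 by generation, and in females 4860 became 2348 and 2432. Depth limits Nags most, with an estimated 507 reads or more per mouse.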

Other observations

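Annotated neighbours of the urea cycle genes were compared with them over the 192 mice, as a description and after removal of group and generation means. Besides Crcp next to Asl, r was 0.52 for Nags with Tmem101, 0.48 for Cps1 with Lancl1, 0.36 for Ass1 with Hmcn2, 0.15 for Otc with Rpgr and -0.083 for Arg1 with Med23. The median r of a urea cycle gene with the other 7 was 0.60 for Cps1, which 0.0754% of all tested genes exceeded in their r with Cps1. For Slc25a13 it was 0.34, which 18.1% of genes exceeded.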
